A study of Mus musculus with 15 samples.

Results

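The PIWI and Argonaute genes code for the proteins that carry small RNAs in animal cells. All probe sets annotated to Piwil1, Piwil2, Piwil4, Ago1, Ago2, Ago3 or Ago4 were taken, which gave 16 probe sets for 7 genes, of 45037 probe sets on the array. Piwil4 was chosen by its measured difference between lesions and normal cells on these same arrays, so its values against normal are given as a description with no test, and the other genes were added as members of its family. The samples were 15 laser-capture microdissected pieces of frozen lung sections. Every mouse carried the K-RasG12V knock-in allele, whose transcript also yields a colour marker, and received adenovirus with Cre recombinase in vivo 3 months before the lungs were taken. The virus turns on the oncogene in the lung cells it reaches, and the normal cells were cut from the same sections as the lesions, so they share the knock-in, the virus and the time point. There were 8 normal samples and 7 hyperplastic lesions of about 500 cells each, of which 3 carried the source name H1 and 4 the source name H2. The labels do not say what sets H1 apart from H2, nor how many mice gave tissue, nor which pieces came from 1 mouse. P-values over such captured regions may therefore be too small, where regions of 1 group share an animal, or too large, where regions of both groups do.

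Argonaute proteins are loaded with microRNAs and hold the messenger RNAs that these pair with, which leads to weaker translation and faster decay of the target. PIWI proteins bind piRNAs instead, work mainly in the germ line of mammals and keep transposons silent there. Piwil4, also called Miwi2, enters the nucleus of fetal male germ cells, where it directs DNA methylation to transposons. Adult lung epithelium is not a tissue in which the piRNA pathway is classically described, whereas the Argonautes are broadly expressed.

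Values are log2 signals, so a difference of 1 is a doubling of the signal, and the median of all probe set means was 3.99. The array medians lay between 3.87 and 4.06, while the spread of the log2 values on an array (their SD) was 1.33 ± 0.17 (SD, n = 8) in normal, 1.35 ± 0.08 (n = 3) in H1 and 1.54 ± 0.12 (n = 4) in H2. Markers of alveolar type 2 cells, which make surfactant, had a higher mean in lesions than in normal for 7 of 7 measured genes, where 42.3% of all genes did, with a median difference of 1.82. In H2 1 of them, the lipid transporter Abca3, passed the test, where 2.73% of all genes did. Endothelial markers had a lower mean for 7 of 7, with a median of -0.72 and 0 called. Of 4 club cell markers 1, Cyp2f2, passed as higher in H2, and it alone of the 4 had a higher mean there. The list's median in H2 was -0.13, and 1 marker was lower at an unadjusted limma p under 0.05. The defining club cell marker Scgb1a1 had means of 3.36, 3.25 and 3.36 in normal, H1 and H2. Of 7 fibroblast markers 1 was called lower in lesions together, where 0.247% of all genes passed. In H2 1 fibroblast marker was called higher and 1 lower. The difference between 3′ and 5′ probe sets of Actb, a sign of RNA quality, was -0.63 ± 0.62 (SD, n = 8) in normal, -0.70 ± 0.60 (n = 3) in H1 and -0.0028 ± 0.23 (n = 4) in H2, and that of Gapdh was 2.53 ± 0.59, 2.54 ± 0.35 and 3.32 ± 0.86. In such pieces of tissue, more cells of a type and more RNA per cell cannot be told apart.

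Piwil4 is the member with the largest difference, and RefSeq lists 2 transcription starts for it on the minus strand of chromosome 9, 22285 bases apart. The 250 bases before each start are shown because they differ in make-up, beside a window of Ago1, the family member that passed the test in H2. The windows are from RefSeq in build GRCm38.p6, run 5′ to 3′ on the gene's strand, and have every CG in capitals.
Piwil4, upstream start, chr9:14740673-14740922: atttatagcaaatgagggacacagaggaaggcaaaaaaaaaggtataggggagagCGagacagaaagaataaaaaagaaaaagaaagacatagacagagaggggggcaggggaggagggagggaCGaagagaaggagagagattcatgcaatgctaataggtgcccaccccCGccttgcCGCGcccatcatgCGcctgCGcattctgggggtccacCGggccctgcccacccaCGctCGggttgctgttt
Piwil4, downstream start, chr9:14718388-14718637: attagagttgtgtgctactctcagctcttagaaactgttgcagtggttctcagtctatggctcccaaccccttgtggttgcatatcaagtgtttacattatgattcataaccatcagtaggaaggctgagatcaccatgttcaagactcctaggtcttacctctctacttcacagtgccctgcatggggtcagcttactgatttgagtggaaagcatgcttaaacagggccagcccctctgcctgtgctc
Ago1, chr4:126468584-126468833: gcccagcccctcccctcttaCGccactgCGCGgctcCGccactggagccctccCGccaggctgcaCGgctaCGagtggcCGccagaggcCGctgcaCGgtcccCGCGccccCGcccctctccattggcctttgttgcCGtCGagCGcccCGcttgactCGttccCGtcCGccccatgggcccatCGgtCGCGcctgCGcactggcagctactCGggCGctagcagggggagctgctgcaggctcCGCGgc
The window of the upstream Piwil4 start held 10 CG, with 65.6% A or G, and that of the downstream start held 0. Over 32851 such windows the median was 6 CG, and 92.13% held at least 1. The Ago1 window shown held 28 CG, more than 92.4% of windows, and a second Ago1 window that overlaps it held 26. The windows of Ago3 and Ago4 on the same chromosome held 27 and 46. Piwil1, on chromosome 5, had 16. The letters TGANTCA, searched on both strands, occurred in the window of the downstream Piwil4 start, in 0 of the other 6 family windows and in 6.75% of all windows. RefSeq entries were matched for 5 of the 7 genes, without Ago2 and Piwil2. Which start a Piwil4 probe set reports was not tested.

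Of the 2 Piwil4 probe sets, 1447564_x_at separated lesions from normal cells. The 8 normal samples ran from 3.00 to 5.16, with a median of 4.04. The 3 H1 lesions had 5.49, 6.88 and 6.78, and the 4 H2 lesions had 7.64, 6.94, 7.62 and 8.98. All 7 lesions lay above all 8 normal samples, H1 by a gap of 0.32 and H2 by a gap of 1.78. Among all probe sets, 0.124% lay wholly above normal in lesions, 0.42% in H1 and 1.93% in H2. The mean was 4.01 ± 0.71 (SD, n = 8) in normal and 7.19 ± 1.06 (SD, n = 7) in lesions, a difference of 3.18 ± 0.42 (SE), or 9.08-fold. H1 exceeded normal by 2.38 ± 0.47, or 5.19-fold, and H2 by 3.79 ± 0.42, or 13.8-fold. Ranked by difference among all 45037 probe sets, it stood 7th for lesions, 17th for H1 and 6th for H2. These values are those for which the gene was put forward.

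The other Piwil4 probe set, 1439716_at, showed no such pattern. Its normal samples ran from 2.93 to 3.68, with a median of 3.44. H1 had 4.24, 2.96 and 3.20, and H2 had 3.88, 2.80, 2.89 and 3.29. The groups overlapped on both sides, the lesions minus normal difference was -0.02 ± 0.22 (SE), and every group mean lay below 3.99, in the lower part of the array's range. Across the 15 arrays the correlation between the Piwil4 probe sets was r = -0.13, a description over arrays that share the group differences. Averaging both probe sets gave a difference of 1.58 for lesions, 1.25 for H1 and 1.83 for H2.

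The suffix _x_at marks probe sets in which some probes also match other transcripts. Of 2441 such probe sets, 13 were called different between lesions and normal (limma, Benjamini-Hochberg adjusted p under 0.05), which is 0.533%, against 50 of 36082 probe sets with the plain _at suffix, or 0.139%. Which other transcripts the Piwil4 probes match was not tested. RefSeq lists 3 further genes that overlap Piwil4, the lncRNAs Gm10706 and Gm34651 and the pseudogene Gm15586, with no probe set named for them here. The nearest measured genes on each side were Amotl1, which codes for an angiomotin of cell junctions, and Fut4, a fucosyltransferase. The 3 Amotl1 probe sets differed by -0.17, -0.06 and 0.20 between lesions and normal. Fut4 1455843_at differed by 1.10 ± 0.37 (SE, limma adjusted p = 0.281), and Fut4 1450834_at by -0.08. The means of Fut4 1455843_at were 4.76 in normal, 5.43 in H1 and 6.18 in H2. In H2 it differed from normal by 1.42 ± 0.42 (SE, limma adjusted p = 0.0917), Fut4 1450834_at by -0.11 and the Amotl1 probe sets by -0.16, -0.09 and 0.21. None of the 5 passed the test.

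**Figure D1:**
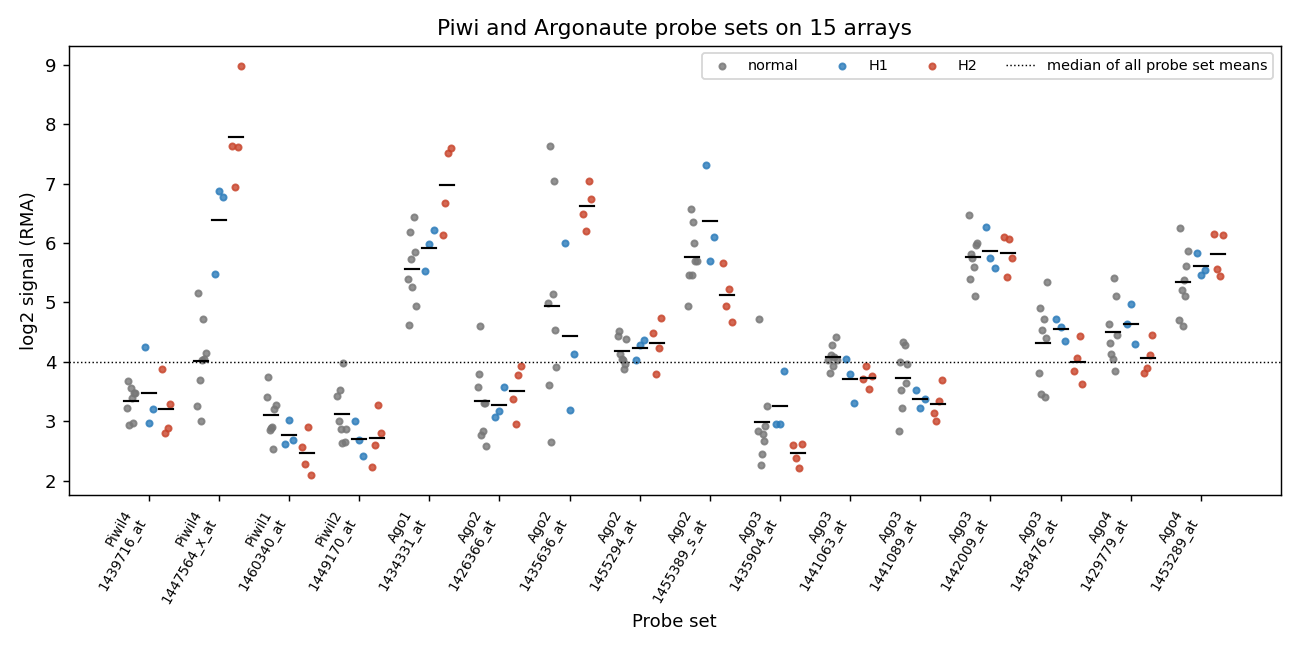
Log2 signal of each Piwi and Argonaute probe set on the 15 arrays, with 1 point per sample, black bars at the group means and a dotted line at 3.99, the median of all probe set means. Piwil4 1447564_x_at is the probe set whose 7 lesions all lie above the 8 normal samples, while Piwil4 1439716_at stays near or below the dotted line in all groups.

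Cell markers were set beside the Piwil4 signal. The mean of the 7 alveolar type 2 markers ran from 5.01 to 10.8 in normal samples, from 8.53 to 10.3 in H1 and from 9.75 to 11.0 in H2. Normal replicate 3, at 10.8, lay above 5 of the 7 lesions in these markers, and had a Piwil4 signal of 3.70. Normal replicate 2 had the lowest marker mean, 5.01, and the highest normal Piwil4 signal, 5.16. Over the 15 arrays the correlation of Piwil4 1447564_x_at with the marker mean was r = 0.48, and after each group's mean was subtracted it was r = -0.21. With endothelial markers the 2 correlations were r = -0.53 and -0.13, and with mast cell and basophil markers -0.54 and 0.06. Over the germ cell, alveolar type 1, club cell, ciliated cell, fibroblast and T and B cell lists r ran from -0.33 to -0.11. After the subtraction those lists ran from -0.395 to 0.05. For the 6 macrophage markers, of which 5 were higher in lesions with a median of 0.47 and 0 called, it was r = 0.61 and 0.29. Their mean ran from 4.28 to 5.59 in normal, 4.68 to 5.46 in H1 and 5.05 to 5.80 in H2. The part of type 2 cells, macrophages or other cells in the Piwil4 signal was not tested. Germ cell genes, among them Dazl, Sycp3 and Stra8, lay near the array's median: the mean of 15 such markers was 3.85 to 4.13 in normal, 3.70 to 3.85 in H1 and 3.82 to 4.14 in H2. Of these 15, 0 passed the test in any comparison. The signal's correlation with array spread was r = 0.45 over all arrays and -0.03 after the group means were subtracted.

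The 6 genes whose probe set most resembled Piwil4 1447564_x_at over the 15 arrays were Marcksl1 (r = 0.92), Slco4c1 (0.92), Tomm20 (0.91), Lemd3 (0.91), Etv3 (0.91) and Lcor (0.90), all with means ordered normal, H1, H2. These arrays share the group differences by which Piwil4 was put forward. After group means were subtracted, the 6 were Etfrf1 (r = 0.84), Fbxo3 (0.84), Mast2 (0.83), Niban1 (0.83), Bend7 (0.83) and Sqor (0.81). No gene stood in both sets. Within the family, the correlations as deposited ran from -0.72 for Ago3 1441063_at to 0.68 for Ago1. After group means were subtracted they ran from -0.50 for Ago3 1442009_at to 0.64 for Ago3 1441089_at, and Ago1 was at 0.14.

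**Figure D2:**
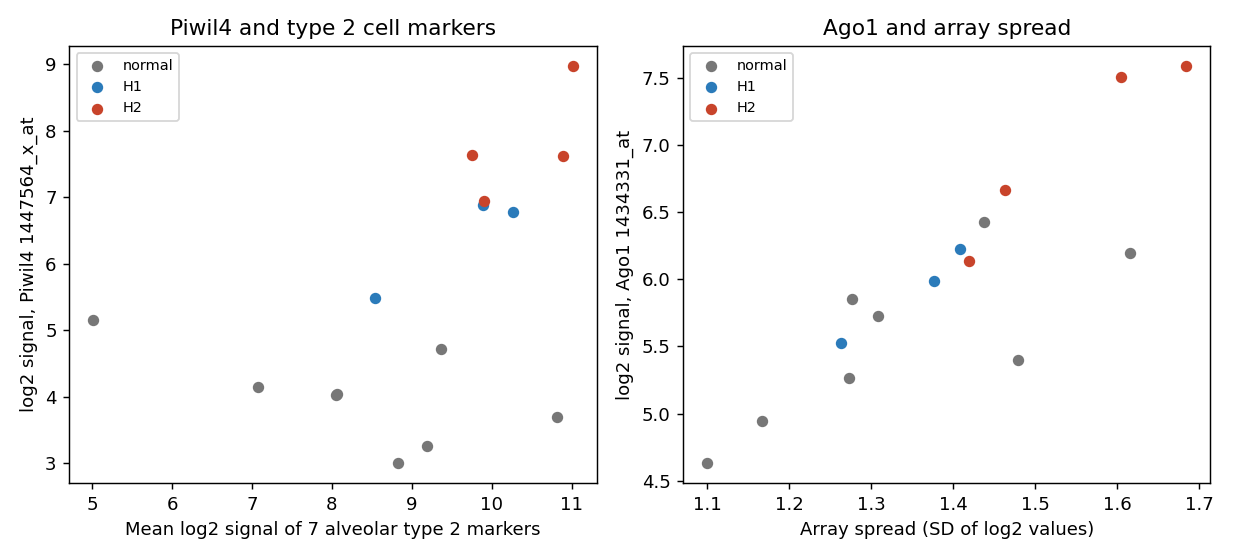
Left, log2 signal of Piwil4 1447564_x_at against the mean log2 signal of 7 alveolar type 2 markers; right, log2 signal of Ago1 1434331_at against the array spread (SD of the log2 values), with 1 point per array coloured by group. Over the 15 arrays r was 0.48 on the left and 0.87 on the right. After group means were subtracted it was -0.21 and 0.82.

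Against normal cells, the members other than Piwil4 gave 14 probe sets to test. With H1 and H2 joined, 0 of the 14 passed in limma, where 0.169% of all probe sets did. At an unadjusted p under 0.05, 1 was higher and 2 were lower, against 11.1% of all probe sets in either direction. The 14 differences ran from -0.50 to 0.97, with a median of -0.10, beside -0.07 over all probe sets. In H1, 0 of 14 passed and 0 had an unadjusted p under 0.05, where 0.00222% and 3.84% of all probe sets did. In H2, 1 of 14 passed, which was Ago1 and higher, where 2.04% of all probe sets passed and 1.7% passed as higher, and 2 higher and 1 lower had an unadjusted p under 0.05, against 18.9%. The median of the 14 was 0.08 in H1 and -0.34 in H2, beside -0.05 and -0.08 over all probe sets. The contrasts share the 8 normal samples.

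The other PIWI genes gave low signals. Piwil1 (Miwi), which serves in meiotic and later male germ cells, was read by 1460340_at. Its normal samples ran from 2.54 to 3.74, with a median of 3.05, H1 had 2.61, 3.02 and 2.68, and H2 had 2.57, 2.28, 2.91 and 2.10. Of the H2 samples, 2.28 and 2.10 lay below the lowest normal value and the others overlapped it. The difference was -0.50 ± 0.19 (SE, limma adjusted p = 0.348) for lesions, -0.33 ± 0.25 (0.999) for H1 and -0.64 ± 0.23 (0.15) for H2. Piwil2 (Mili), which makes and amplifies piRNAs with its slicing activity, was read by 1449170_at. Its normal samples ran from 2.63 to 3.98, with a median of 2.94, H1 had 3.00, 2.68 and 2.42, and H2 had 2.23, 2.60, 3.27 and 2.80. The groups overlapped, with a lesion difference of -0.41 ± 0.22 (SE, limma adjusted p = 0.521). All group means of both genes were below 3.99, and at such levels the array says little about the transcript.

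Ago1, a microRNA-binding Argonaute, was the member that rose in H2. On 1434331_at the normal samples ran from 4.63 to 6.43, with a median of 5.56. H1 had 5.52, 5.99 and 6.23, inside the normal range. H2 had 6.14, 6.67, 7.51 and 7.59, of which 3 lay above the highest normal sample. The mean was 5.56 ± 0.61 (SD, n = 8) in normal, 5.91 ± 0.36 (n = 3) in H1 and 6.98 ± 0.70 (n = 4) in H2. H2 exceeded normal by 1.42 ± 0.34 (SE), or 2.68-fold (limma adjusted p = 0.045), while H1 exceeded it by 0.36 ± 0.38 (0.999) and all lesions by 0.97 ± 0.33 (0.294). The H1 minus H2 difference was -1.07 ± 0.43 (limma adjusted p = 0.386), so a difference between the lesion classes did not pass.

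The Ago1 signal moved with other features of the arrays. Its correlation with array spread was r = 0.87 over the 15 arrays and 0.82 after group means were subtracted. With the type 2 marker mean it was 0.85 and 0.81, and with the mean of 7 mast cell and basophil markers -0.87 and -0.78. The latter mean stayed low throughout, from 3.40 to 4.06 in normal, 3.65 to 3.69 in H1 and 3.26 to 3.65 in H2. Type 2 markers were not alone in this. After group means were subtracted, Ago1 also correlated with fibroblast (r = 0.74), alveolar type 1 (0.66), endothelial (0.57) and macrophage (0.47) markers. For club cell and T and B cell markers r was 0.36 and 0.26, and for germ cell and ciliated cell markers -0.43 and -0.14. With array spread as a covariate in the fit, the H2 difference was 0.72 (limma adjusted p = 0.254), with the Actb difference 1.15 (0.273) and with the Gapdh difference 0.95 (0.289). The call was lost in 11 of the 15 fits that left out 1 array, with differences of 1.22 to 1.53 and adjusted p of 0.0522 to 0.152: those without normal replicate 2, 4, 5, 7 or 8, without any 1 of the H1 samples (replicates 2, 3 and 4) and without H2 replicate 5, 6 or 7. The part of array spread, RNA quality and cell make-up in the Ago1 difference was not tested.

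Ago2, the Argonaute that can itself cut a well-matched target, was read by 4 probe sets that did not move alike. On 1435636_at the normal samples ran from 2.65 to 7.63, with a median of 4.76. H1 had 5.99, 3.18 and 4.13, and H2 had 6.48, 6.21, 7.04 and 6.74. H2 was tight at the upper end while the normal samples covered almost 5 log2 units, and the H2 minus normal difference was 1.68 ± 0.77 (SE, limma adjusted p = 0.251). On 1455389_s_at, where the suffix marks probes shared by several transcripts, the normal samples ran from 4.94 to 6.57, with a median of 5.71. H1 had 7.32, 5.71 and 6.11, and H2 had 5.66, 4.95, 5.22 and 4.67. Here H2 lay toward the low end and differed from normal by -0.65 ± 0.33 (SE, limma adjusted p = 0.297), opposite in sign to 1435636_at. The remaining sets, 1426366_at and 1455294_at, differed between H2 and normal by 0.17 ± 0.32 and 0.14 ± 0.20 (SE). With values in opposite directions and none past the test, no direction is given for Ago2.

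Ago3 and Ago4 are microRNA-binding Argonautes encoded near Ago1. The 5 Ago3 probe sets differed between lesions and normal by -0.39 to 0.08. The lowest unadjusted p was at 1441063_at, whose normal samples ran from 3.82 to 4.42, with a median of 4.06, and whose lesions ran from 3.30 to 4.05, with a median of 3.77. That difference was -0.36 ± 0.15 (SE, limma adjusted p = 0.377), and it was -0.37 in H1 and -0.35 in H2. Ago3 1442009_at had 5.76 ± 0.41 (SD, n = 8) in normal, 5.86 ± 0.35 (n = 3) in H1 and 5.83 ± 0.32 (n = 4) in H2, so its groups differed by less than their spread. Ago3 1458476_at had a correlation with array spread of r = -0.78, opposite in sign to that of Ago1. Ago4 1453289_at had 5.34 ± 0.56 (SD, n = 8) in normal, 5.61 ± 0.20 (n = 3) in H1 and 5.82 ± 0.37 (n = 4) in H2, with a lesion difference of 0.39 ± 0.23 (SE, limma adjusted p = 0.57). Ago4 1429779_at differed by -0.18 ± 0.24 (0.815). Neither gene had a probe set past the test.

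**Figure D3:**
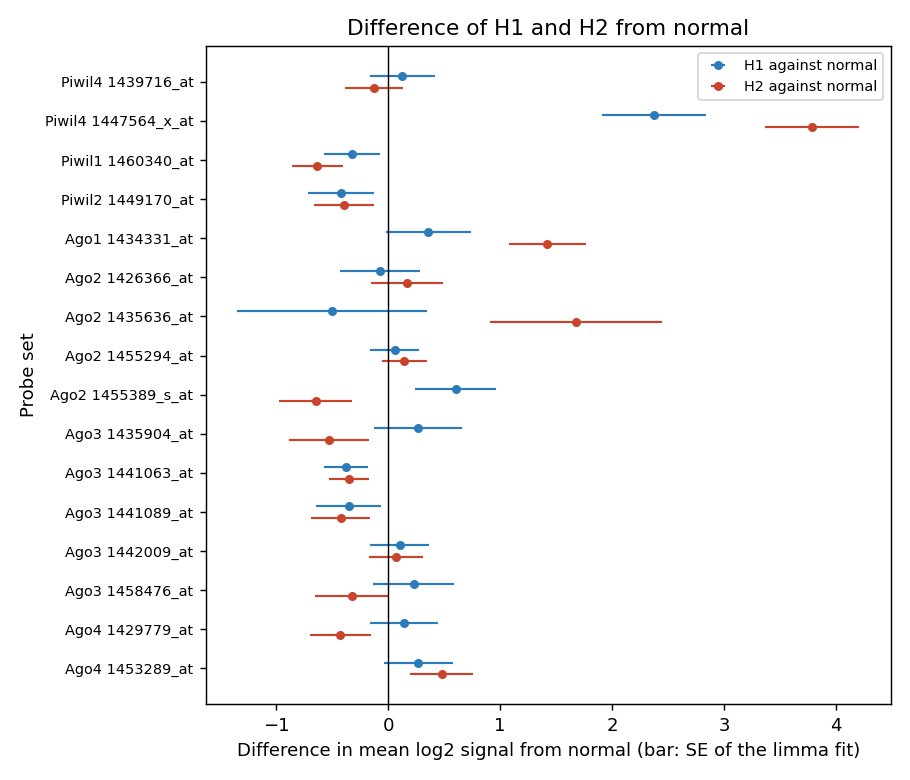
Difference in mean log2 signal of H1 and of H2 from normal for each of the 16 probe sets, with bars of 1 standard error of the limma fit and a line at 0. Piwil4 1447564_x_at stands at 2.38 in H1 and 3.79 in H2, and the H2 points of Ago2 1435636_at (1.68) and 1455389_s_at (-0.65) lie on opposite sides of 0.

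H1 and H2 were then compared directly, a contrast that was not used to put Piwil4 forward. In limma 0 of the 16 probe sets passed, as did 0% of all probe sets, and at an unadjusted p under 0.05, 1 was higher in H1 and 3 were lower, against 11.5% of all probe sets. Piwil4 1447564_x_at was lower in each H1 lesion than in each H2 lesion, by a gap of 0.07, and the mean difference was -1.41 ± 0.53 (SE, limma adjusted p = 0.364). Ago2 1435636_at differed by -2.18 ± 0.96 (0.411) and Ago2 1455389_s_at by 1.25 ± 0.41 (0.35). Those 3 probe sets and Ago3 1435904_at, with 0.79 ± 0.45 (0.498), were the 4 of 16 in which H1 and H2 did not overlap. With 3 against 4 samples, 16.9% of all probe sets did not overlap, so the count of 4 is near the background. The 95% interval of the Piwil1 difference, 0.31 ± 0.28 (SE), includes 0, as does that of Piwil2, -0.02 ± 0.33. The labels do not say whether these arrays served to define the lesion classes.

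The partners of the family were counted next, with the probe set of highest mean standing for each gene. Of 25 piRNA pathway genes 23 were measured, and in H2 against normal 1 rose and 0 fell, where 2.73% of all genes passed in either direction, so 1 of 23 is near the background. It was Wdr77, a cofactor of the arginine methyltransferase Prmt5, which modifies PIWI proteins and also spliceosome proteins. Its mean was 3.53 in normal, 4.38 in H1 and 5.48 in H2, a difference of 1.94 ± 0.35 (SE, limma adjusted p = 0.0128) for H2, while its other probe sets differed by 0.26 and 0.32. Prmt5 itself, also in the list, had the opposite sign in H2, -0.47 ± 0.19 (SE, limma adjusted p = 0.204), and did not pass. The germ line genes of the list did not pass: Tdrd1, a scaffold of the piRNA granules, differed by -0.57 ± 0.22 (0.182), Pnldc1, a piRNA trimming enzyme, by -0.63 (0.138), Mybl1, a factor that switches on piRNA precursors in the testis, by -0.74 (0.129), and Henmt1, which methylates piRNA ends, by 0.50 (0.172). The other Mybl1 probe set differed by 0.07. The list's median was -0.19 in H2, beside -0.04 over all genes, and 3 higher and 6 lower had an unadjusted p under 0.05, where 21.6% of all genes did. For lesions together and for H1, 0 of the 23 passed, where 0.247% and 0.0055% of all genes did.

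Of 18 microRNA processing genes, all measured, 0 passed in any comparison, with 5 higher and 1 lower in H2 at an unadjusted p under 0.05, against 21.6% of all genes, and a median of 0.21, beside -0.04 over all genes. The lowest adjusted p was that of Tut4, which adds uridines to microRNA precursors, with -1.33 ± 0.34 (SE, limma adjusted p = 0.0576) in H2. Ran, the GTPase that drives nuclear export, had 1.92 ± 0.54 (0.0755), Ncbp2, a subunit of the nuclear cap-binding complex, 1.83 (0.0916), and Ddx17, a helicase of the Drosha complex, 1.60 (0.106). Drosha and Dicer1, the nucleases that cut microRNA precursors, had 1.91 (0.243) and 0.85 (0.269). The other Drosha probe sets differed by 0.93 and -0.11 in H2. Tut4, Ran and Dicer1 had 5, 6 and 2 probe sets, Ncbp2 and Ddx17 had 3 each, and the value given is that of the set with the highest mean. Between lesions together and normal, the sets of Tut4 differed by -0.83 to -0.00 and those of Ran by 0.20 to 1.62. Those of Dicer1 differed by 0.41 to 0.80, of Ncbp2 by 0.51 to 1.25 and of Ddx17 by 0.25 to 0.96.

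Of 25 Argonaute effector partners 23 were measured, and in H2 3 rose and 0 fell, where 2.39% of all genes rose. Cnot7, a deadenylase of the CCR4-NOT complex that shortens poly(A) tails, had means of 3.79 in normal, 4.48 in H1 and 7.41 in H2, a difference of 3.62 ± 0.77 (SE, limma adjusted p = 0.027) for H2. Its other probe sets differed by 1.31 and -0.02. Ipo8, an import receptor that binds Argonautes, rose by 1.31 ± 0.29 (0.032), with other probe sets at 0.33 and -0.05. Pan2, the nuclease of the other deadenylase complex, rose by 1.28 ± 0.29 (0.0332) and had 1 probe set. Ddx6, a helicase that represses translation of Argonaute targets, had 1.85 (0.124). The list's median was 0.17, beside -0.04 over all genes, and 0 of 23 passed in lesions together or in H1. Tnrc6a, Tnrc6b and Tnrc6c, the scaffolds that join Argonautes to these complexes, had 0.17, -0.46 and -0.01 in H2. In H1 against H2, 0 genes of the 3 lists passed, and the lowest adjusted p was that of Pan2, with -1.72 ± 0.36 (SE, limma adjusted p = 0.28).

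The 4 partner calls depended on single arrays and on covariates. With array spread in the fit none of the 4 passed: the H2 difference was 1.61 for Wdr77 (limma adjusted p = 0.0719), 2.02 for Cnot7 (0.133), 0.90 for Ipo8 (0.189) and 0.93 for Pan2 (0.186). With the Actb difference the adjusted p ran from 0.0759 for Wdr77 to 0.199 for Ipo8, and with the Gapdh difference from 0.0978 for Wdr77 to 0.224 for Ipo8. The part of array spread and RNA quality in these differences was not tested. Wdr77 no longer passed without H2 replicate 6 or 7 (limma adjusted p = 0.0586 to 0.0608, differences 1.69 to 1.76), and Cnot7 without normal replicate 7 or H2 replicate 1, 6 or 7 (0.0516 to 0.0959). Ipo8 was lost without normal replicate 4 or 8 or H2 replicate 1, 6 or 7 (0.0563 to 0.116), and Pan2 without normal replicate 2, 5, 7 or 8 or H2 replicate 5, 6 or 7 (0.051 to 0.117).

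**Figure D4:**
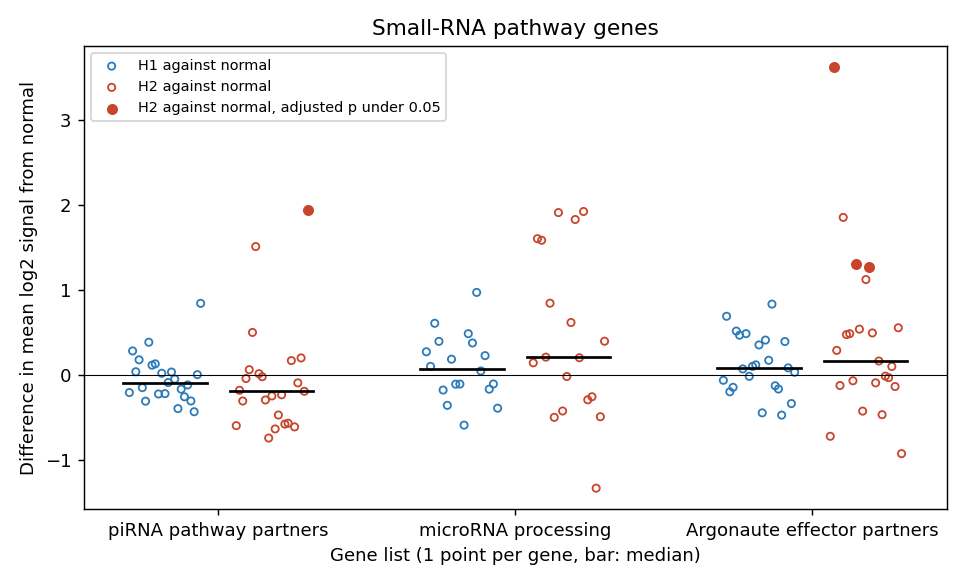
Difference in mean log2 signal from normal for the genes of 3 lists, piRNA pathway partners, microRNA processing and Argonaute effector partners, with 1 point per gene, black bars at the list medians, blue for H1 and red for H2. Filled points passed the limma test (adjusted p under 0.05) and are Wdr77, Cnot7, Ipo8 and Pan2 in H2.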

How the data were processed

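Gene expression was measured on Affymetrix arrays in 15 microdissected lung samples, extracted with PicoPure and amplified with WT-Ovation One-Direct per the labels' protocols. The authors deposited 1 log2 signal for each probe set and array. Their processing notes at submission list affy and RMA, without a version, and RMA corrects background, quantile-normalizes and summarises probes. Of 45101 probe sets 64 controls were left out. Names come from the platform annotation. limma 3.58.1 (R 4.3.3; lmFit, eBayes) compared lesions with normal in a fit with 2 groups and H1, H2 and normal in a fit with 3 groups over all arrays. Benjamini-Hochberg adjustment ran over all 45037 probe sets, with calls at an adjusted p under 0.05. The script was tested on simulated data. Members, lists and named genes were chosen with earlier results of these data known. The named genes were up to 4 per list with the lowest p, the 6 most like Piwil4 and its nearest measured neighbours. Tdrd1, Prmt5, Drosha, Dicer1 and Tnrc6a to Tnrc6c were added for their roles after their values were seen. Alternatives covered scaling, filters, probe set choice, covariates, weights, the replicate block and leaving out each array. Precision is limited by how many samples each group has.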

Additional observations from a re-analysis of the deposited data

Results flagged for a closer look

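Ago3 1435904_at had 1 normal sample far from the others. Normal replicate 2 read 4.73, the next highest normal sample 3.25 and the median of the 8 was 2.81; the gap was 0.596 of the group's whole range. It was the 1 such value among 60 groups examined, where chance gives about 1 in 20. These were the probe sets of the family and of Wdr77, Cnot7, Ipo8 and Pan2, each in normal, H2 and lesions together. The groups held 8, 4 and 7 samples, and the lesions include the H2 samples, so the 60 are not separate. The same array had the lowest alveolar type 2 marker mean of the 15, 5.01; its part in the value was not tested.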

How the results depend on the processing

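Across the settings run, 0 of the 14 tested family probe sets passed against normal in lesions together or in H1, and no value changed sign among calls. In H2 the family count of 1 (Ago1) became 0 with quantile normalization repeated, a trended robust prior, the replicate block, only the arrays compared, array spread as a covariate, the Actb or Gapdh 3' to 5' difference as a covariate, and without the 2 narrowest normal arrays. It was 0 to 1 over fits without 1 array. Ago1's H2 difference ranged from 0.72 to 1.56 over these and 5 further settings that kept the call (adjusted p 0.00875 to 0.289), and was 1.24 (0.135) with the block. The Piwil4 1447564_x_at difference between lesions and normal was 2.88 to 3.47 without 1 array, 3.01 with the spread covariate and 1.58 as the mean of the gene's probe sets.

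The 4 partner genes called in H2 became 1 with repeated quantile normalization, 11 with array weights, 0 with the replicate block, 2 with only the arrays compared, 0 with the spread, 0 with the Actb and 0 with the Gapdh covariate, and 1 without the 2 narrowest normal arrays. They were 0 to 9 without 1 array (0 without H2 replicate 6 or 7, 9 without normal replicate 3). In H1 against H2 array weights gave 1 call, Pan2, where the unweighted fit gave 0. Over all probe sets, the 919 calls in H2 (767 higher) became 17 with the block, 409 with quantile normalization, 347 (163 higher) with the spread covariate and 3225 with weights. The 76 calls in lesions (73 higher, 3 lower) became 148 (122 higher, 26 lower) with quantile normalization.

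Whether replicate numbers pair the samples is not settled: deviations of same-numbered samples correlated at -0.16 to 0.38, over 0.1 in 4 of 7 pairs, and the own number ranked first for 1 of 7. They were not treated as pairs because not every pair exceeded 0.1. The block could not be used for H1 against H2, which share no number, and a fit with only the arrays compared is the main one for lesions. The causes of these changes were not tested. Signals below 3.99, such as those of Piwil1, Piwil2 and Piwil4 1439716_at, limit what can be read there. The normal means of Wdr77 (3.53) and Cnot7 (3.79) also lay below it, and that of Piwil4 1447564_x_at (4.01) lay close to it. Tdrd1 and Mybl1 lay below it in all groups.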
